A study of Mus musculus with 13 samples.

Results

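Apelin is a secreted peptide encoded by Apln, and its receptor, encoded by Aplnr and named Agtrl1 in older annotations, is a G-protein-coupled receptor on the cell surface. The members described here are these 2 genes, of 16786 genes with a symbol on the array, and all 5 of their non-control probes, of 41174 probes. The probes were found through the RefSeq accession that the array files give for each one: 3 probes carry the accession of Apln (NM_013912) and 2 that of Aplnr (NM_011784). RNA from mouse retina was measured on 13 two-colour Agilent arrays. They hold 6 samples labelled tip, 4 labelled stalk and 3 control samples labelled as retina without vasculature, called nonvascular below. The series title places the tip samples among retinal endothelial tip cells, the cells that lead a vascular sprout, while stalk cells trail behind them. Each sample was labelled with Cy5 (red) and hybridised against the same Universal Mouse Reference RNA in Cy3 (green), without a dye swap. The labels used here give no strain, age, genotype or way of collecting the cells, and they do not tie samples to animals. All p-values therefore measure the spread between these samples, part of which may be technical.

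Apelin is made as a longer precursor that is cut by proprotein convertases such as furin, and the peptide is trimmed further and inactivated by other peptidases. The receptor couples to inhibitory and other G proteins, is switched off through receptor kinases and arrestins, and also binds a second peptide ligand encoded by Apela. In growing vessels, including those of the retina, apelin is known from sprouting endothelium, and the receptor from endothelial cells, particularly of veins.

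The start of the Apln gene is shown, and not that of Aplnr, because the promoter sequences used held no entry for Aplnr. The sequence is from RefSeq (build GRCm38.p6), chrX:48034804-48035103 on the minus strand, and runs 5′ to 3′ from 250 bases before the annotated start to 50 bases after it. Capitals mark the core GGAA, or its reverse complement TTCC, that transcription factors of the ETS family bind.
Apln: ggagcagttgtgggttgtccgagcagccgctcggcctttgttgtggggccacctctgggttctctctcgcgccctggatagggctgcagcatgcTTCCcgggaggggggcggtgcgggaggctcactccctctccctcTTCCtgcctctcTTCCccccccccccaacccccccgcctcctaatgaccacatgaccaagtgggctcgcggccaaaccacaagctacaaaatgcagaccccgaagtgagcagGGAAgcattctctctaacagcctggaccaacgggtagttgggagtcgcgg
The window held 4 matches to this core on either strand, which 96.0% of the 32851 promoters of the same length also hold at least once. The cores bound by hypoxia-inducible factors, ACGTG and GCGTG, were searched on both strands in the same way. They had 0 matches in this window, against at least 1 match in 43.8% of the promoters. These are matches of letters and were not tested as sites.

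The probes of each gene are named by the array's identifiers and described from the 5′ to the 3′ end of the gene. The files give their positions without naming a genome build, so the positions serve only for order and spacing. The order rests on the direction in which a position is listed, which matched the RefSeq strand for 98.7% of 18507 probes. Apln is on chromosome X, and its probes lie at 42549220 to 42555252 (A_51_P133345), 42546520 to 42546579 (A_52_P62284) and 42546213 to 42546272 (A_51_P209327). The listed span of A_51_P133345 is 6033 bases, far longer than those of the other probes (60 bases), so the probe crosses a gap in the genome. It lies 2640 bases from A_52_P62284, which in turn is 247 bases from A_51_P209327. Aplnr is on chromosome 2, with A_51_P299055 at 84835214 to 84835273 and A_52_P97572 at 84837231 to 84837290, 1957 bases further downstream. All 5 probes were well above background in both colours on all 13 arrays, and none was saturated or marked as an outlier. The brightest probe of each gene over all arrays, A_52_P62284 for Apln and A_52_P97572 for Aplnr, stands for the gene below, and the other probes are given beside it.

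The arrays had a median red signal, net of background, of 98.1 to 141 units in the stalk group, 105 to 292 in the tip group and 166 to 282 in the nonvascular group. Between 85.0% and 95.4% of probes per array were well above background in red. Each array was a slide of its own, so no slide held more than 1 sample. Scanning went group by group, from stalk through tip to nonvascular, except that tip replicate 5 was read on another day, so the order of scanning cannot be told apart from the groups. Without tip replicate 5 the differences of tip from stalk given below were 0.907 for Apln and −0.839 for Aplnr. Arrays of the same group correlated at 0.945 to 0.976 over all probes. The test on each probe was limma's moderated test on log2 ratios of sample over reference, fitted over 39354 probes with all 13 arrays. A probe was called at a Benjamini-Hochberg adjusted p under 0.05, and ± after a difference is its standard error.

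Apln was highest in the tip samples, lower in the stalk samples and close to the reference in nonvascular retina. On A_52_P62284 the log2 ratio over the reference was 1.73 at the lowest, 2.08 at the median and 2.34 at the highest of the 6 tip arrays. The 4 stalk arrays read 1.33, 0.98, 1.04 and 1.33, and the 3 nonvascular arrays read 0.06, 0.08 and 0.13. The 3 groups did not overlap. The means were 2.06 ± 0.24 (SD, n = 6) in tip, 1.17 ± 0.19 (SD, n = 4) in stalk and 0.09 ± 0.03 (SD, n = 3) in nonvascular samples, or 4.17, 2.25 and 1.07 times the reference. These levels rest on the dye normalization by loess, since centring each array on its median instead gave the nonvascular arrays 0.97 to 1.06. The differences between the groups moved less, as given below.

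Tip exceeded stalk by 0.89 ± 0.12 on the log2 scale for A_52_P62284, a 1.85-fold difference (95% interval 0.63 to 1.15, limma adjusted p = 0.00216). All 6 tip arrays lay above the stalk mean. Of the 3 Apln probes this was the 1 called higher in tip, a call that 1.34% of all probes tested received. With median centring the difference was 0.86 but was no longer called (adjusted p = 0.0571, range over the alternatives 0.000104 to 0.0571). Of the other probes tested, 75 had a larger positive difference.

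The most 3′ probe of Apln, A_51_P209327, gave a difference of nearly the same size with more spread. It read 2.77 at the lowest, 3.32 at the median and 3.65 at the highest on the tip arrays. The stalk arrays read 2.56, 1.73, 2.58 and 2.57, and the nonvascular arrays −0.61, −0.70 and 0.41. Tip lay above stalk on every array, and stalk above nonvascular. The tip mean was 3.27 ± 0.34 (SD, n = 6), against 2.36 ± 0.42 (SD, n = 4) in stalk and −0.30 ± 0.62 (SD, n = 3) in nonvascular samples. The difference of tip from stalk was 0.91 ± 0.25, which did not pass the threshold (limma adjusted p = 0.0817). It passed when the red channel was used alone, at 1.54 (adjusted p = 0.00204), and without nonvascular replicate 3 (0.91, adjusted p = 0.038). Under 21 of 23 alternatives it stayed uncalled, with a limma adjusted p of up to 0.313. The groups did not overlap in this direction for 2.69% of all probes.

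The most 5′ probe of Apln, A_51_P133345, read near the reference in every group after loess. Its arrays read −0.10 to 0.19 in tip, 0.07 to 0.27 in stalk and −0.03 to 0.10 in nonvascular samples, and these ranges overlapped. Its means were 0.09 ± 0.10 (SD, n = 6), 0.16 ± 0.09 (SD, n = 4) and 0.02 ± 0.07 (SD, n = 3). Tip minus stalk was −0.07 ± 0.06 (95% interval −0.21 to 0.06, limma adjusted p = 0.607). The probe was also dim: its red signal net of background was 42.9 to 157 units over the 13 arrays, against 2020 to 18400 units for A_52_P62284. Its levels moved with the processing: the Feature Extraction log ratio, on the log2 scale, read −0.11 to 1.02 over the 13 arrays, and median centring gave −0.64 to 0.15. Tip minus stalk was not called under either.

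Aplnr had the opposite order between the vascular samples: it was highest in stalk, lower in tip and near the level of the reference in nonvascular retina. On A_52_P97572 the stalk arrays read 1.50, 1.49, 1.78 and 1.57. The tip arrays read 0.65 at the lowest, 0.75 at the median and 0.91 at the highest, and the nonvascular arrays read −0.08, 0.07 and −0.02. Again no group overlapped another; tip lay wholly below stalk for 2.53% of all probes. The means were 1.58 ± 0.14 (SD, n = 4) in stalk, 0.76 ± 0.10 (SD, n = 6) in tip and −0.01 ± 0.07 (SD, n = 3) in nonvascular samples, or 3.00, 1.69 and 0.992 times the reference. As for Apln these levels rest on loess: with median centring the nonvascular arrays read 0.75 to 0.80.

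Aplnr fell by 0.83 ± 0.07 on the log2 scale from stalk to tip, a 1.78-fold difference (95% interval −0.98 to −0.68, limma adjusted p = 7.34e-05), with all 6 tip arrays below the stalk mean. It ranked at position 21 of all probes by p, and A_52_P62284 of Apln at position 116. This was 1 of the 2 Aplnr probes, and 1.15% of all probes were called lower. Over both genes 2 of 5 probes were called in this comparison, against 2.49% of all probes in either direction. The red channel alone, without the reference, gave a difference of −0.63 that was not called (adjusted p = 0.144, range over the alternatives 6.26e-05 to 0.144). On that scale the tip arrays read 10.35 to 11.47 and the stalk arrays 11.39 to 11.85, so that the groups overlapped.

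The other Aplnr probe, A_51_P299055, varied little. It read 0.11 at the lowest, 0.17 at the median and 0.24 at the highest in tip, 0.55, 0.24, 0.28 and 0.21 in stalk, and 0.20, 0.24 and 0.22 in nonvascular samples. The 3 groups overlapped, with stalk replicate 1 the highest array. Tip minus stalk was −0.15 ± 0.06 (limma adjusted p = 0.22). The mean of all probes of a gene, which includes the flat ones, gave smaller differences of 0.58 for Apln (adjusted p = 0.0188) and −0.49 for Aplnr (adjusted p = 3.21e-04).

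**Figure D1:**
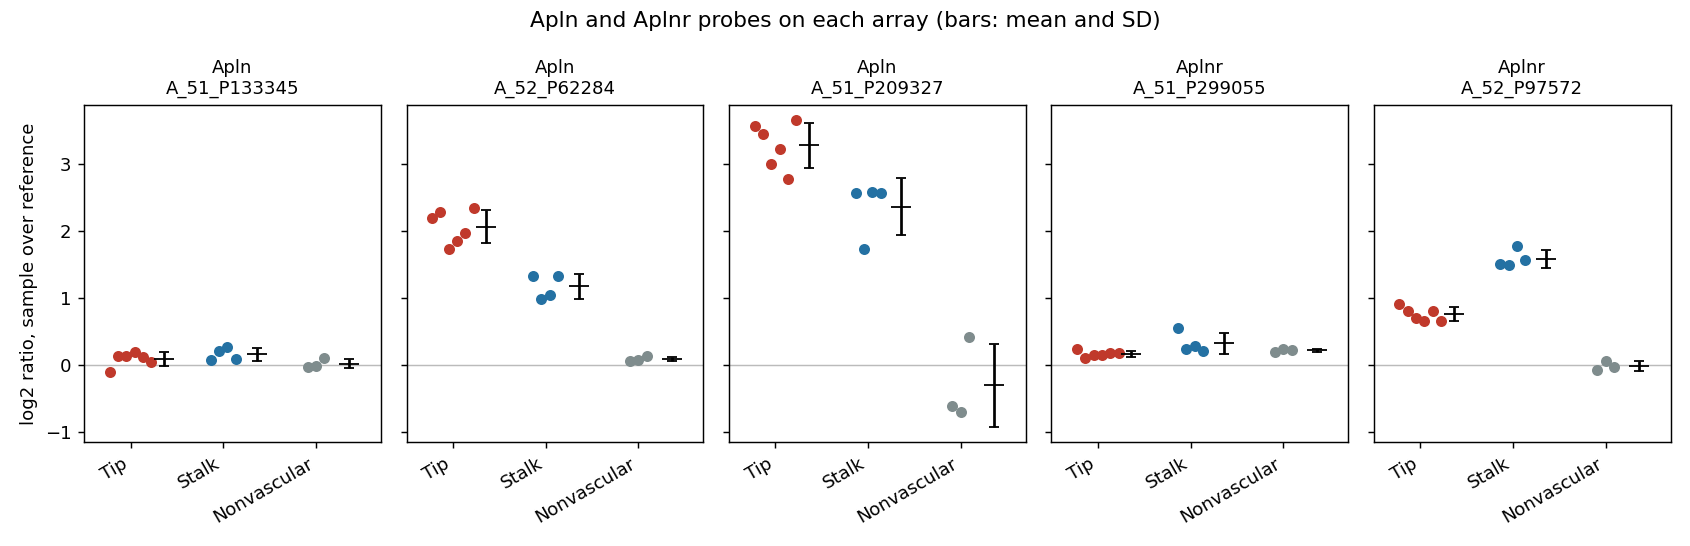
Log2 ratio of sample over reference (vertical axis) on each of the 13 arrays, 1 panel per probe, with points for arrays and bars for the group mean and SD. A_52_P62284 and A_51_P209327 of Apln descend from tip to stalk to nonvascular, A_52_P97572 of Aplnr is highest in stalk, and the most 5′ probe of each gene stays between −0.10 and 0.55 on every array.

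Both genes were higher in the vascular samples than in nonvascular retina. Apln on A_52_P62284 was 1.97 ± 0.13 higher in tip than in nonvascular samples (3.91-fold, limma adjusted p = 2.3e-07) and 1.08 ± 0.14 higher in stalk (2.11-fold, adjusted p = 6.86e-05). On A_51_P209327 the differences were 3.57 ± 0.28 in tip (11.9-fold, adjusted p = 7.43e-07) and 2.66 ± 0.30 in stalk (6.31-fold, adjusted p = 1.74e-05). Aplnr on A_52_P97572 was 0.77 ± 0.08 higher in tip (1.70-fold, adjusted p = 6.96e-06) and 1.60 ± 0.08 higher in stalk (3.02-fold, adjusted p = 2.99e-08). Every tip and stalk array lay above every nonvascular array on these 3 probes, as was so for 10.8% of all probes in tip and 15.8% in stalk.

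The most 5′ probes were not called in either comparison. A_51_P133345 of Apln differed by 0.07 ± 0.07 in tip (limma adjusted p = 0.546) and by 0.14 ± 0.07 in stalk (adjusted p = 0.201). A_51_P299055 of Aplnr differed by −0.05 ± 0.07 in tip (adjusted p = 0.658) and by 0.10 ± 0.07 in stalk (adjusted p = 0.341). Thus 3 of 5 member probes were called higher against nonvascular retina in each comparison, against 10.8% of all probes for tip and 10.7% for stalk. The comparisons share the nonvascular arrays, so they are not independent of each other.

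**Figure D2:**
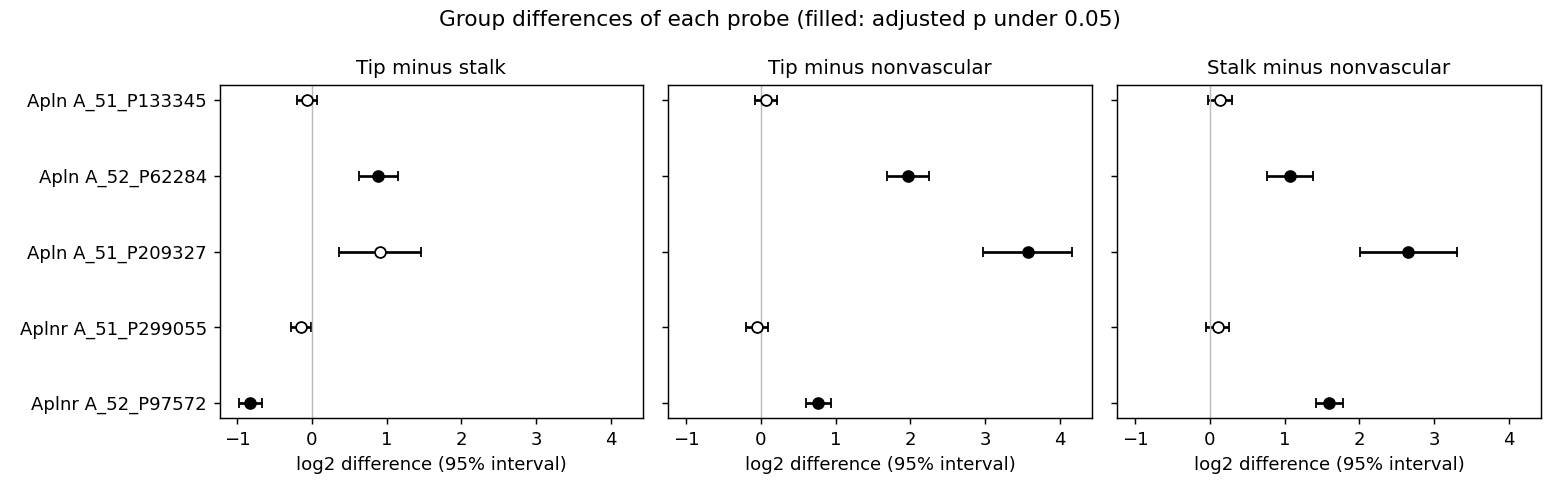
Difference in log2 ratio between groups (horizontal axis) for each of the 5 probes, with 95% intervals, in 1 panel per comparison; filled points have an adjusted p under 0.05. Tip minus stalk is called for 1 Apln probe and, in the other direction, for 1 Aplnr probe; against nonvascular samples the same 3 probes are called in both panels.

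Set against each other on the same array, ligand and receptor separated tip from stalk without overlap. The log2 ratio of Apln minus that of Aplnr was positive on all 6 tip arrays, at 1.28, 1.46, 1.03, 1.20, 1.16 and 1.68. It was negative on all 4 stalk arrays, at −0.17, −0.51, −0.73 and −0.24, and near 0 on the nonvascular arrays, at 0.14, 0.01 and 0.15. The 2 genes are on different probes, so the sign itself is relative to the reference RNA. The mean was 1.30 ± 0.23 (SD, n = 6) in tip, −0.41 ± 0.26 (SD, n = 4) in stalk and 0.10 ± 0.08 (SD, n = 3) in nonvascular samples. Tip exceeded stalk by 1.72 (two-sided exact permutation test, p = 0.00952, the smallest this design allows, adjusted over 3 comparisons to 0.0286). Each gene by itself already separated tip from stalk without overlap, in opposite directions. The lack of overlap and this p were therefore fixed by those values and add no support to them. Tip exceeded nonvascular samples by 1.20 (exact p = 0.0238, adjusted to 0.0357). Stalk and nonvascular samples differed by −0.52 (exact p = 0.0571, the smallest that 4 arrays against 3 allow under this definition). The two-sided p is here 2 times the smaller one-sided p, a definition adopted after results had been seen. The one used at first, which counts regroupings by absolute difference, gave exact p-values of 0.00476, 0.0119 and 0.0571 for the 3 comparisons, so that both definitions put them on the same sides of the threshold.

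**Figure D3:**
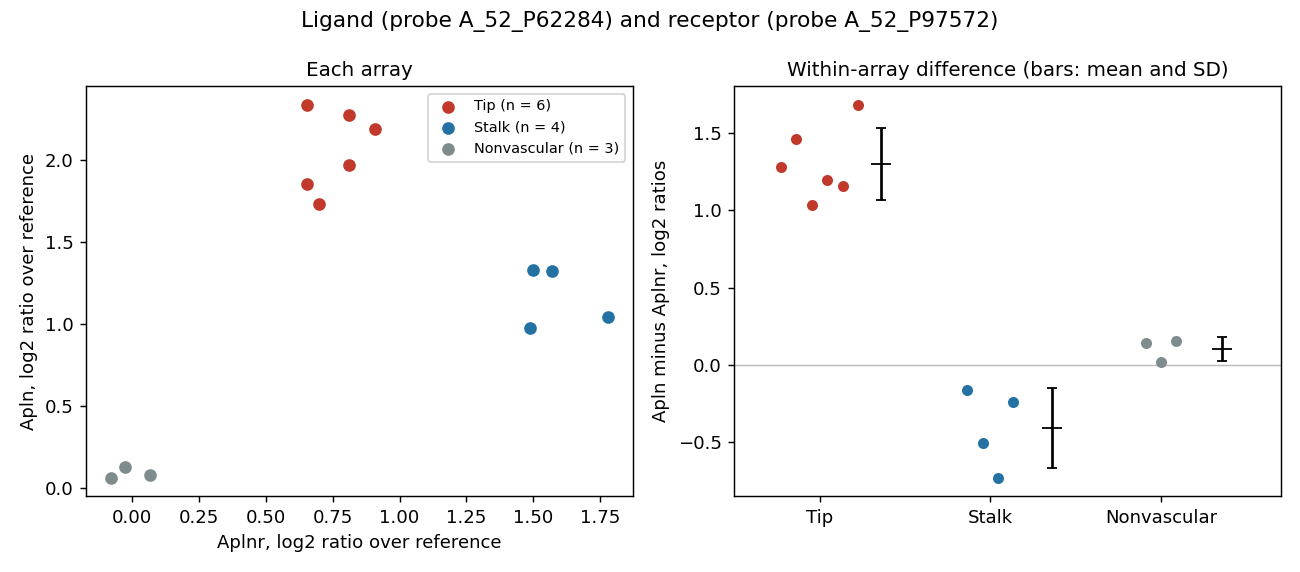
Left, log2 ratio of Apln (A_52_P62284, vertical axis) against that of Aplnr (A_52_P97572, horizontal axis), 1 point per array; right, their difference on each array with the group mean and SD. Tip arrays lie high on the Apln axis, stalk arrays far along the Aplnr axis and nonvascular arrays near 0 on both; the difference is 1.03 to 1.68 in tip and −0.73 to −0.17 in stalk.

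Whether the probes of a gene differed in the comparison was tested on the within-array difference between them. For Apln, tip exceeded stalk by 0.96 more on A_52_P62284 than on A_51_P133345, and by 0.98 more on A_51_P209327 than on A_51_P133345. For Aplnr the same quantity, A_52_P97572 less A_51_P299055, was −0.68. Each of these 3 pairs gave an exact permutation p of 0.00952, the smallest possible, and 0.0127 after adjustment over the 4 pairs. A_51_P133345 was dim, at 42.9 to 157 units of net red signal, and the offset of 50 draws the ratios of dim probes toward 0. Its pairs therefore largely repeat the differences of the other Apln probes, and they cannot tell whether the transcript differs along its length. For Aplnr, A_52_P97572 by itself already separated tip from stalk without overlap, while A_51_P299055 differed by only −0.15. The Aplnr pair therefore largely repeats the difference of A_52_P97572. The A_51_P209327 and A_52_P62284 probes, which lie closest together, differed by 0.02 (exact p = 0.952). Over the 13 arrays these 2 probes correlated at 0.951, while A_51_P133345 correlated with them at 0.094 (A_52_P62284) and 0.274 (A_51_P209327), and the 2 Aplnr probes with each other at 0.411. These correlations describe arrays that share their groups. Such splits were common on this array: of 226 genes with at least 2 tested probes whose brightest probe was called in tip minus stalk, 203 (89.8%) had another probe not called that way.

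The marker lists show what else moved between the samples. Of 10 tip cell markers 8 were called higher in tip than in stalk, against 1.34% of all probes, with a median difference of 1.01 against 0.01 over all probes. This list holds Cxcr4, which the study names in its title, and was drawn up with earlier results known, so its direction is not independent evidence. The largest was Esm1, which encodes a secreted proteoglycan of endothelium, at 2.87 ± 0.16 (limma adjusted p = 3.15e-06). Against nonvascular retina 11 of 12 endothelial markers were called higher in tip, all but Tek (−0.02), beside 10.8% of all probes. The probe of Pecam1, a defining marker, read only 0.11 in tip and −0.04 in stalk. Their mean log2 ratio was 2.47 to 2.84 on the tip arrays, 2.74 to 2.93 on the stalk arrays and 0.31 to 0.58 on the nonvascular arrays. Between tip and stalk 1 endothelial marker was called higher and 2 lower, with a median of −0.28. In bulk samples, fewer cells of a type and less RNA per cell cannot be told apart.

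The mean of the 12 endothelial markers was 2.67 in tip and 2.86 in stalk. Subtracting it on each array could move the members' differences only by the gap between these means. Relative to the marker mean Apln was −0.61 ± 0.22 (SD, n = 6) in tip and −1.69 ± 0.17 (SD, n = 4) in stalk. The difference was 1.08, against 0.89 before subtraction. Aplnr was −1.91 ± 0.10 (SD, n = 6) in tip and −1.27 ± 0.09 (SD, n = 4) in stalk. Its difference was −0.64, against −0.83 before subtraction. This scale was chosen after the values had been seen and is a description without a test.

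Markers of other cells and of vessel type also differed. Of 10 pericyte markers 8 were called lower in tip than in stalk, against 1.15% of all probes, with a median of −0.78. Their mean log2 ratio was 1.25 to 1.63 on the tip arrays and 2.11 to 2.31 on the stalk arrays. Of 5 venous markers 2 were lower in tip: Nr2f2, a transcription factor of venous identity, at −0.95 ± 0.14 (limma adjusted p = 0.00308), and Ephb4, a receptor of venous endothelium, at −0.56 ± 0.13 (adjusted p = 0.0375). Their list had a mean of 0.75 to 0.91 in tip and 1.28 to 1.61 in stalk. Of 6 arterial markers 2 were lower in tip as well, with a list mean of 0.72 to 1.03 in tip and 1.31 to 1.56 in stalk. The arterial markers Efnb2 (0.31) and Hey1 (0.03) went the other way and were not called. The means of these lists thus moved in the direction of Aplnr, and the part of these markers in its difference was not tested.

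Of 13 measured genes of the hypoxia response, 2 were called higher in tip than in stalk, Pgk1 (0.73 ± 0.11, limma adjusted p = 0.00602) and P4ha1 (0.93 ± 0.12, adjusted p = 0.00171). Pgk1 encodes a glycolytic enzyme and P4ha1 a collagen prolyl hydroxylase. The list's median was 0.27, and its mean was −1.76 to −1.50 on the tip arrays and −1.99 to −1.96 on the stalk arrays. Its genes ran from −0.55 (Slc2a1) to 1.07 (Vegfa), neither of them called. The ganglion cell list had a median of 0.31, with a mean of 0.39 to 0.75 on the tip arrays and −0.32 to 0.63 on the stalk arrays. Both lists moved in the direction of Apln, and their part in its difference was not tested. Of the 34 astrocyte, microglia, ganglion cell, photoreceptor and erythroid markers measured, limma called 0 in tip minus stalk, with 6 at an unadjusted p under 0.05. Over all probes 2.49% were called, and 6882 of 39354 had an unadjusted p under 0.05. With so few markers, 0 calls cannot be told apart from that share.

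Markers of several other cells also differed between the vascular samples and nonvascular retina, where Apln and Aplnr were lower. Pericyte markers were called higher for 8 of 10 genes in tip (median 1.96) and 9 of 10 in stalk (median 2.73). Astrocyte markers were higher for 4 of 7 genes in tip (median 1.37) and 4 of 7 in stalk (median 1.65), and erythroid markers for 2 of 4 in each. Ganglion cell markers were lower for 7 of 8 genes in tip and 6 of 8 in stalk, and microglia markers for 4 of 7 in tip and 3 of 7 in stalk. Photoreceptor markers were lower for 3 of 8 genes in tip (median −0.08) and 2 of 8 in stalk (median −0.02). Beside these counts, 10.8% of all probes were called higher and 16.2% lower in tip, and 10.7% and 18.1% in stalk. With so few markers, the photoreceptor counts cannot be told apart from those shares. The part of these cells in the differences of Apln and Aplnr from nonvascular retina was not tested.

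Of 32 other genes of the apelin pathway, 30 were measured, and 2 of them were called between tip and stalk, against 2.49% of all probes. The second ligand gene, Apela, and the G protein gene Gnai1 had no probe under these names. By limma, 1 gene was called higher in tip and 1 lower, with a median over the list of 0.00 (0.01 over all probes). Mef2c, a transcription factor of muscle and endothelium, was the lower one, at −1.01 ± 0.19 (adjusted p = 0.0136). Gnai3, an inhibitory G protein subunit, was the higher one, at 0.33 ± 0.08 (adjusted p = 0.045). The call of Gnai3 was lost under 17 of 24 other settings (adjusted p 0.0346 to 0.728 over all of them), and that of Mef2c under median centring (0.0909).

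Among peptidases that process or degrade the ligands, Furin, the convertase, read −0.34 ± 0.13 in tip minus stalk (limma adjusted p = 0.204). It was higher than in nonvascular retina in tip, by 0.97 ± 0.14 (adjusted p = 1.86e-04), and in stalk, by 1.30 ± 0.15 (adjusted p = 2.77e-05). On their brightest probes Mme, the neprilysin gene, which cleaves apelin peptides, and Klkb1, the plasma kallikrein gene, differed by no more than 0.06 in size in any of the 3 comparisons, and neither was called. Another Mme probe, A_52_P429723, read −0.09 in stalk minus nonvascular and was not called either. The brightest probes of the angiotensin receptor genes Agtr1a and Agtr1b, related in sequence to Aplnr, lay between −0.06 and 0.03 in all 3 comparisons. Another Agtr1a probe, A_52_P645862, read −0.13 at the lowest (stalk minus nonvascular) and 0.08 at the highest (tip minus stalk), and was not called. Agtr2 was lower in tip than in nonvascular samples, at −0.21 ± 0.06 (adjusted p = 0.0142) and differed by −0.05 between tip and stalk.

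Against nonvascular retina 6 of the 30 pathway genes were called higher and 5 lower in tip, and 5 higher and 4 lower in stalk. Of all probes 10.8% were called higher and 16.2% lower in tip, and 10.7% higher and 18.1% lower in stalk. Higher in both were Mef2c (1.73 ± 0.20 in tip and 2.75 ± 0.22 in stalk), Gnai2, an inhibitory G protein subunit (1.45 ± 0.15 and 1.58 ± 0.17), Nos3, the endothelial nitric oxide synthase (1.12 ± 0.14 and 1.19 ± 0.15), Grk5, a receptor kinase (0.99 ± 0.10 and 0.84 ± 0.11), and Furin. Lower in both were Prkaa2, a catalytic subunit of AMP-activated kinase (−1.05 ± 0.09 and −1.12 ± 0.10), Gnaq, a G protein subunit (−1.04 ± 0.16 and −1.26 ± 0.17), and, on its brightest probe only, Klf2, a transcription factor induced by flow. Each gene was counted by its brightest probe, and the probes of some genes disagreed. For Klf2 the brightest probe, A_52_P442031, read −0.94 in tip minus nonvascular, while A_51_P144264 read 2.83. The latter was also lower in tip than in stalk, at −1.99 ± 0.27 (limma adjusted p = 0.00209), where the brightest read 0.06. For Grk2, a receptor kinase gene whose brightest probe was not called, A_51_P460302 was higher in tip by 1.39 (adjusted p = 6.11e-07) and in stalk by 1.07 (adjusted p = 1.09e-05), by limma against nonvascular samples. For Grk5, A_51_P511081 was not called in stalk minus nonvascular (0.18, limma adjusted p = 0.311) but was higher in tip than in stalk (0.44, adjusted p = 0.0449).

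**Figure D4:**
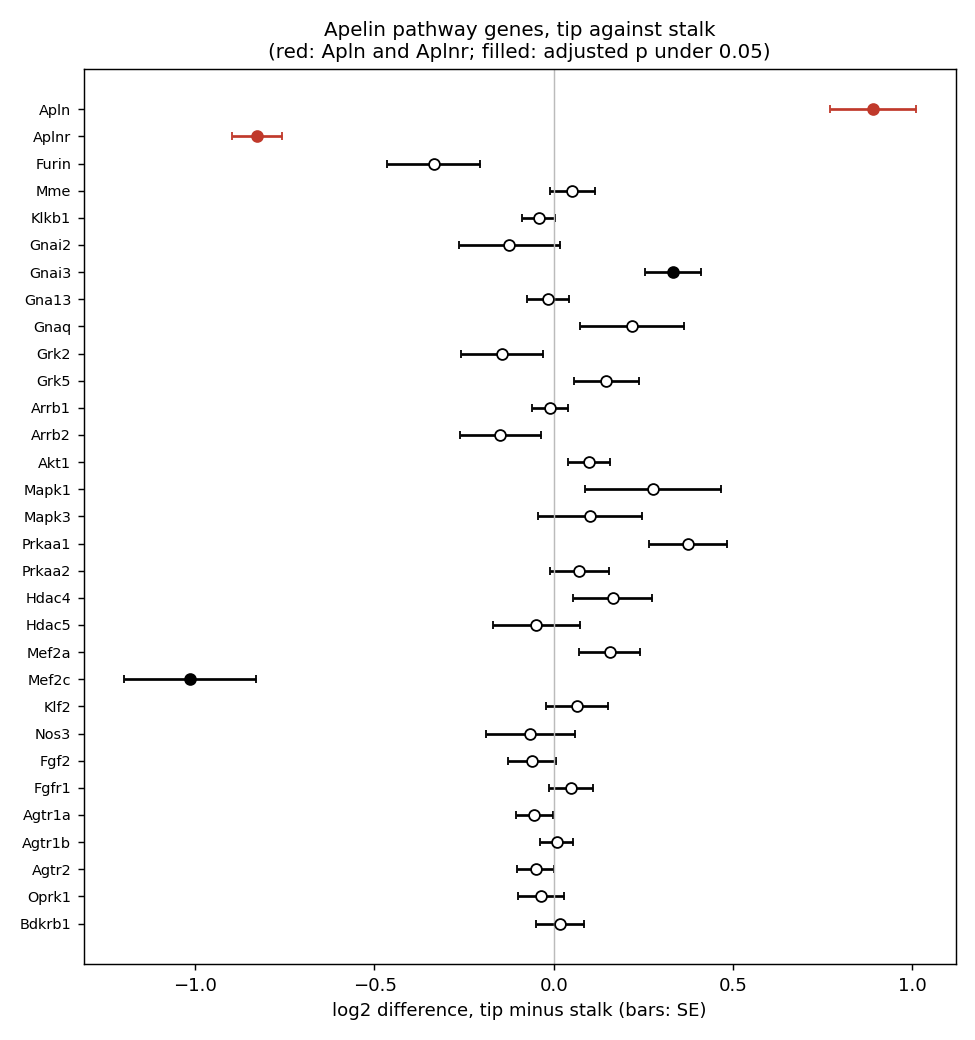
Difference in log2 ratio, tip minus stalk (horizontal axis), for the brightest probe of Apln, Aplnr and all but 1 of the measured pathway genes, with bars for the standard error; filled points have an adjusted p under 0.05. Apln (0.89) and Aplnr (−0.83) stand on opposite sides, and of the other genes Gnai3 (0.33) and Mef2c (−1.01) are called.

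The genes whose pattern was most like that of each member were ranked by Pearson correlation with its brightest probe, over 15913 genes. These correlations describe arrays that share group and reference, and carry no test. Over all 13 arrays the closest to Apln was Esm1 (r = 0.986), at mean log2 ratios of 4.64 in tip, 1.78 in stalk and −1.74 in nonvascular samples. It was followed by Akr1b8, an aldo-keto reductase (0.963), Kcne3, a potassium channel subunit (0.961), Ccn4 (0.955), Oaf (0.955), Vwf, the von Willebrand factor gene (0.953), Dapk2, a protein kinase (0.953), and Phlda3 (0.95). Over the 10 tip and stalk arrays alone the closest were Cdc42ep3, an effector of a small GTPase (0.971), Pdrg1 (0.959), Vti1b (0.958) and Esm1 (0.949). After them came Nt5c (0.943), Crlf3 (0.941), Ppp1cc (0.938) and Amph (0.934), so that Esm1 was in both sets for Apln.

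For Aplnr the closest over all 13 arrays was Fli1, an ETS family transcription factor of endothelium (r = 0.981), at 0.53 in tip, 1.67 in stalk and −0.84 in nonvascular samples. Next were Foxs1, a forkhead factor (0.979), Gja4, a gap junction protein of arterial endothelium (0.978), C1qtnf5 (0.974), Htra3, a serine protease (0.974), Slc3a2, a subunit of amino acid transporters (0.973), Itm2a (0.97) and Ctsw (0.969). Over the 10 tip and stalk arrays they were C1qtnf5 (0.982), Fmnl3, a formin (0.979), Slc38a5, an amino acid transporter (0.974), and Arl4a (0.972). They were followed by Moxd1 (0.969), Mfsd2a, a lipid transporter of barrier endothelium (0.969), Ripply3 (0.968) and Htra1 (0.967). C1qtnf5 was in both sets for Aplnr, with 1.15 in tip, 2.10 in stalk and 0.27 in nonvascular samples.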

How the data were processed

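The deposited array files hold red and green mean spot intensity and local background from Agilent Feature Extraction 8.5.1.1, per the file headers and the submitters' processing notes. They also hold the log10 ratio of processed red over green, per the file headers. Linear ratios make up the deposited table of values. Where the table gives a value for a probe spotted once, the log10 of that value equalled the log10 ratio within 0.001 on every array. Values were missing for 631 to 1555 probes per array.

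Log2 ratios were computed from the intensities with limma 3.58.1 (R 4.3.3, with the data.table package, 1.17.8): normexp with an offset of 50, then loess within each array. Control spots had weight 0 and were dropped, outlier spots were set to missing, and spots of a probe were averaged. Probes well above background in red on at least 3 of 13 arrays were tested (39354), with 3 group means fitted to all arrays and Benjamini-Hochberg adjustment in each comparison. The method was tested on simulated data. The number of arrays limits the precision.

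Genes were named through RefSeq accessions (22072 probes) or the symbol in the description (1223), with RefSeq annotation of GRCm38.p6 used for names, strand and promoter; 17879 probes had no symbol. Permutation tests were exact over arrays and two-sided, as 2 times the smaller one-sided p, a definition that replaced another after results had been seen. Every member probe is reported. Of the pathway lists the called genes, the peptidases and the angiotensin receptors are named (1 listed gene is counted but not reported here by name), and for likeness the 8 genes with the highest correlation. Marker genes and further probes of pathway genes were singled out after their values were seen. Members, lists and rules were chosen with earlier results of these data known. Same-numbered replicates of different groups did not deviate together, so samples were treated as unpaired.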

Additional observations from a re-analysis of the deposited data

Results flagged for a closer look

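On the most 3′ Apln probe, A_51_P209327, stalk replicate 2 stood apart from the other 3 stalk arrays, at a log2 ratio of 1.73 against 2.56 to 2.58. The gap to its nearest neighbour was 0.979 of the group's range. It was the 1 such array among 16 sets of 4 or 6 arrays examined, and chance marks about 1 in 20. Without that array tip exceeded stalk by 0.70 on this probe (limma adjusted p = 0.181), and by 0.83 on A_52_P62284 (adjusted p = 0.00912).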

How the results depend on the processing

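The brightest probes of Apln and Aplnr kept their directions in all 3 comparisons under every alternative run, and all calls held except 2 for tip minus stalk: Apln with median centring (0.864, limma adjusted p = 0.0571) and Aplnr in the red channel alone (−0.626, adjusted p = 0.144). Leaving out 1 array at a time gave 0.825 to 0.955 for Apln and −0.86 to −0.763 for Aplnr. The cause of these losses was not tested. The number of probes called in tip minus stalk, 979 of the probes tested, was 280 with median centring and 235 with array brightness in the model. Leaving out 1 array gave 479 (without stalk replicate 1) to 1831 (without tip replicate 6), with 496 without stalk replicate 3, 585 without tip replicate 2 and 599 without tip replicate 3. Of these calls 53.8% were higher in tip, against 22.1% with median centring and 30.5% in the red channel alone; for tip minus nonvascular the share was 40.0%, and 28.1% with median centring. Pathway genes called in tip minus stalk, 2 here, were 0 with median centring (limma, 2 at an unadjusted p under 0.05) and 1 with the Feature Extraction log ratio, the red channel alone, the deposited ratios, only the groups compared, array brightness, or the replicate block, and 1 to 3 with an array left out. Apln minus Aplnr in tip against nonvascular samples was 1.12 to 1.25 with an array left out (exact permutation, adjusted p up to 0.107), where fewer arrays raise the smallest p possible. The deviations of same-numbered samples correlated at −0.143 to 0.073, so no pairing showed in the values. They cannot tell whether such samples came from the same animals, which the labels do not give. With the replicate block, Apln differed by 0.842 (adjusted p = 0.0299), Aplnr by −0.816 (adjusted p = 0.0113), and 714 probes were called in tip minus stalk.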
